A study of Homo sapiens with 16 samples.

Results

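Fatty acids were added to HepaRG cells that also received formoterol, and the resulting gene expression was compared with that of cells given formoterol alone. The comparison is between 8 of the 16 libraries of the study, chosen by their labels: 4 libraries of the combination against 4 of formoterol. It was fitted together with the other 8 libraries, which share the gene filter and the estimate of spread, and it covered all 18121 genes that could be tested. HepaRG is a human liver cell line whose differentiated cultures hold hepatocyte-like and cholangiocyte-like cells. All cells in the study were differentiated, were kept in 2% DMSO in medium with insulin and the glucocorticoid triamcinolone acetonide, and were treated for 3 days with the medium changed daily. The formoterol group received 30 nM formoterol. The combination group received 30 nM formoterol together with 0.25 mM palmitic acid and 0.5 mM oleic acid. The fatty acid group received the same acids without formoterol, and the control group received 1% BSA as vehicle. Whether the media with formoterol or fatty acids also held BSA is not stated in the labels, so a difference in carrier between groups cannot be told apart from the acids. These last 2 groups serve here as the measure of what the acids did without formoterol. Poly-A RNA was sequenced in bulk, so fewer cells of a type and less RNA per cell cannot be told apart. The labels speak of independent replicates but not of separate cultures, so a p-value here sets a difference against the spread among these libraries alone, which may be technical.

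Formoterol is a beta-adrenergic agonist, and the receptor class it acts on couples through Gs to adenylyl cyclase. The cyclic AMP that is made activates protein kinase A and the transcription factor CREB, and in liver this pathway is known for driving gluconeogenesis and glycogen breakdown. Long-chain fatty acids are ligands of the nuclear receptors of the PPAR family. In hepatocytes PPAR-alpha induces genes of fatty acid uptake, oxidation, ketogenesis and lipid droplet coating, and unsaturated fatty acids lower the activity of SREBP-1c, the main activator of lipogenic genes.

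The formoterol libraries held 32.8 x 1e6 to 65.7 x 1e6 counts and the combination libraries 33.1 x 1e6 to 41.7 x 1e6. Mitochondrially encoded genes took 6.48 to 8.31% of counts in formoterol and 5.24 to 6.44% in the combination. Combination replicate 2 stood apart from its group. Its log2 expression correlated with the other combination libraries at 0.972 to 0.975, whereas the correlations among the other 3 reached 0.981. It lay more than 1.5-fold below the lowest of its group in 1212 genes and more than 1.5-fold above the highest in 788. The summed level of the 20 hepatocyte markers was 28808 counts per 1e6 counts (CPM) in this library, 63064 to 70212 CPM in the other combination libraries and 71366 to 77490 CPM in formoterol. The same counts for the other combination libraries were 588 and 455 in replicate 1, 939 and 283 in replicate 3 and 631 and 424 in replicate 4. The totals and the counts of each gene group are therefore given also without combination replicate 2, from a fit to the other 15 libraries, as are the genes described in full. Of the other genes named for their difference between combination and formoterol, those whose call changed without it are named with that value.

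A gene is said to have risen or fallen where its difference had a Benjamini-Hochberg adjusted p under 0.05 in edgeR's quasi-likelihood test. By this rule 3342 of 18121 genes (18.4%) differed between combination and formoterol, of which 1717 (9.48%) rose and 1625 (8.97%) fell. Without combination replicate 2, 2700 of 18517 genes (14.6%) differed, 1328 upward (7.17%) and 1372 downward (7.41%). Of these, 1226 rises and 1262 falls were also called with all libraries, and 0 genes were called in opposite directions. The changes were mostly small: 547 genes (3.02%) passed with at least 2-fold, 433 of them upward (2.39%) and 114 downward (0.629%). The libraries of the groups did not overlap in 3830 genes (21.1%), 1809 higher in the combination (9.98%) and 2021 lower (11.2%). A fit to the 8 libraries alone called 2637 genes, 1437 up and 1200 down. The median log2 fold change over all genes was 0.01. Scaling by total counts alone shifted this median to 0.14 and turned the calls into 2965 rises and 696 falls, so directions of gene groups below are those relative to the median gene, and a group whose median changed sign under that scaling is named.

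Among genes that respond to fatty acids, PDK4 and ANGPTL4 rose more than 3-fold. Of 24 measured PPAR-responsive genes 10 rose and 2 fell, against 9.48% and 8.97% of all genes, with a median log2 fold change of 0.36. Without combination replicate 2, 14 rose and 2 fell, and the median was 0.54. PDK4 (ENSG00000004799, chr7:95583499-95596491, build GRCh38 as for all positions here) encodes the kinase that switches off pyruvate dehydrogenase when fat is burned. Its level was 797, 777, 764 and 766 CPM in formoterol replicates 1 to 4 and 2509, 3065, 2502 and 2435 CPM in combination replicates 1 to 4. Each combination library was thus above every formoterol library, with the highest value in replicate 2 (log2 fold change 1.76 ± 0.07, edgeR adjusted p = 9.29e-14; without replicate 2 1.68 ± 0.05, edgeR adjusted p = 9.42e-19). ANGPTL4 (ENSG00000167772, chr19:8363289-8374373), a secreted inhibitor of lipoprotein lipase, was at 10.3, 9.96, 8.50 and 9.84 CPM with formoterol and at 44.2, 63.1, 41.8 and 38.4 CPM with the combination. The groups did not overlap, and replicate 2 was again the highest (log2 fold change 2.28 ± 0.14, edgeR adjusted p = 2.6e-10; without replicate 2 2.10 ± 0.11, edgeR adjusted p = 2.29e-13). CPT1A (ENSG00000110090, chr11:68754620-68844410), the carnitine acyltransferase that admits long-chain fatty acids to mitochondria, was at 143, 143, 148 and 135 CPM in formoterol and 269.6, 230.4, 267 and 242 CPM in the combination. All combination libraries lay above all formoterol libraries, by a smaller margin than for PDK4 (log2 fold change 0.83 ± 0.06, edgeR adjusted p = 1.06e-08; without replicate 2 0.87 ± 0.06, edgeR adjusted p = 9.29e-11).

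The coat proteins of the lipid droplet moved by different amounts. PLIN2 (ENSG00000147872, chr9:19108375-19149290), the perilipin found on most droplets, was at 150.3, 161, 150 and 162 CPM in formoterol and at 518, 474, 508 and 465 CPM in the combination. The groups did not overlap, and replicate 2 lay with its group (log2 fold change 1.66 ± 0.06, edgeR adjusted p = 1.88e-14; without replicate 2 1.67 ± 0.06, edgeR adjusted p = 2.42e-17). PLIN1 (ENSG00000166819, chr15:89664365-89679427), the perilipin of fat cells, was at 9.62, 8.35, 10.9 and 10.6 CPM and then at 43.7, 37.2, 45.2 and 40.6 CPM, again without overlap (log2 fold change 2.08 ± 0.10, edgeR adjusted p = 8.95e-12; without replicate 2 2.13 ± 0.10, edgeR adjusted p = 5.02e-14). PLIN1 overlaps PEX11A, which held 3.68 times its counts, so part of this value is uncertain; PEX11A itself changed by 0.54 ± 0.06, edgeR adjusted p = 1.47e-06. Of the other 15 measured lipid droplet genes, PLIN4 (0.33) and CIDEC (0.44), which promotes droplet fusion, rose, and FITM2 (-0.27) and HSD17B11 (-0.38) fell. The lipase PNPLA2 was at a log2 fold change of 0.03 ± 0.07, edgeR adjusted p = 0.819. The list as a whole had 4 rises and 2 falls with a median of 0.15, against 5 and 2 with a median of 0.20 without combination replicate 2.

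**Figure D1:**
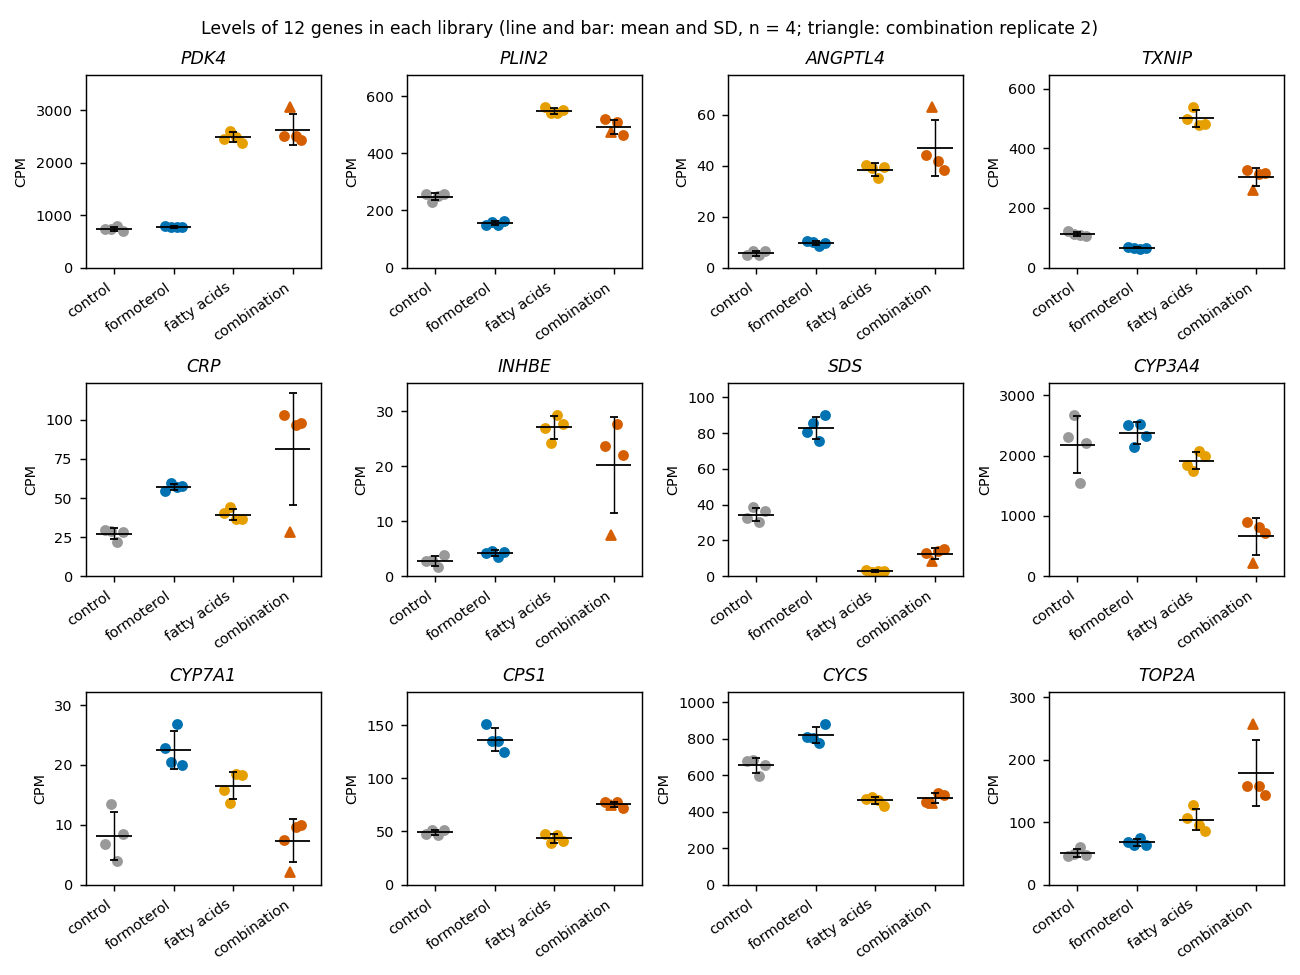
Level in CPM (y axis, linear, from 0) of 12 genes in each of the 16 libraries, by treatment group (x axis); points are libraries, the line and bar are the mean and SD of 4, and the triangle is combination replicate 2. PDK4, PLIN2, ANGPTL4 and TXNIP lie higher in all 4 combination than in all 4 formoterol libraries, SDS, CYP3A4, CYP7A1, CPS1 and CYCS lower, and for CRP the triangle lies below the formoterol libraries while the other 3 combination points lie above them.

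Enzymes of fatty acid oxidation and ketogenesis did not move as a block. Of 28 measured, 5 rose and 7 fell with all libraries (median -0.09), and 8 rose and 6 fell without combination replicate 2 (median 0.00); scaling by total counts turned the median to 0.04. Besides CPT1A, the very-long-chain acyl-CoA dehydrogenase ACADVL (0.91) and the thiolase ACAA2 (0.44) rose. So did HADHA (0.26) and HADHB (0.38), the subunits of the trifunctional protein. Those that fell included the medium-chain dehydrogenase ACADM (-0.31), the peroxisomal EHHADH (-0.47), the dienoyl-CoA reductase DECR1 (-0.42) and the isomerases ECI1 (-0.28) and ECI2 (-0.50).

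Fatty acid uptake and activation genes had 3 rises and 8 falls among 23 (median -0.20; 4 and 8 without combination replicate 2, median -0.17; 5 and 6 when scaled by total counts). FABP4, a fatty acid binding protein of fat cells and macrophages, rose from 0.771, 1.39, 1.09 and 1.31 CPM to 3.33, 3.55, 3.75 and 3.23 CPM (log2 fold change 1.59 ± 0.21, edgeR adjusted p = 1.65e-05; without replicate 2 1.58 ± 0.23, edgeR adjusted p = 1.92e-05). The largest falls were in ACOT11 (-1.78), an acyl-CoA thioesterase, and SLC27A5 (-1.38), the bile acyl-CoA synthetase of the fatty acid transporter family. ACSM2A (-0.84) and ACSM2B (-0.68), near-identical medium-chain acyl-CoA synthetases between which counts are uncertain, also fell. The scavenger receptor CD36 was under 2 CPM in all 8 libraries and its difference was not called.

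Of 19 genes of fatty acid synthesis and desaturation 2 rose and 7 fell (median -0.17), and without combination replicate 2 1 rose and 7 fell (median -0.13). SREBF1 (ENSG00000072310, chr17:17810399-17837002), which encodes SREBP-1c, was at 55.6, 56.9, 47.6 and 50.8 CPM in formoterol and 33.1, 15.1, 26.4 and 26.9 CPM in the combination. The 4 combination libraries were all below the 4 formoterol libraries, with replicate 2 the lowest (log2 fold change -1.06 ± 0.15, edgeR adjusted p = 5.17e-05; without replicate 2 -0.87 ± 0.10, edgeR adjusted p = 9.23e-07). SREBF1 overlaps RAI1, which held 0.438 times its counts. SCD (ENSG00000099194, chr10:100347124-100364834), the stearoyl-CoA desaturase that makes oleate, was at 1868, 1539.9, 1933 and 1817 CPM and then at 1123, 351, 1246 and 1136 CPM (log2 fold change -0.89 ± 0.24, edgeR adjusted p = 0.0117; without replicate 2 -0.62 ± 0.11, edgeR adjusted p = 0.000395). FASN, the fatty acid synthase, was at 769, 805, 707 and 678 CPM in formoterol and 616, 458, 601 and 577 CPM in the combination, with no overlap but a smaller difference (log2 fold change -0.39 ± 0.10, edgeR adjusted p = 0.00635; without replicate 2 -0.31 ± 0.08, edgeR adjusted p = 0.0111). The largest fall of the list was that of THRSP (-1.79), a lipogenic co-factor whose gene overlaps NDUFC2, with 0.966 times its counts. ACACA, the acetyl-CoA carboxylase of the cytosol, was not called (-0.17 ± 0.08, edgeR adjusted p = 0.167), while ACACB, its mitochondrial counterpart, rose (0.21 ± 0.07, edgeR adjusted p = 0.0301).

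Among 25 genes of cholesterol synthesis and uptake 0 rose and 7 fell (median -0.22; 0 and 6 without combination replicate 2, median -0.12). INSIG1, which retains the SREBP escort protein in the endoplasmic reticulum, fell from 513, 496, 521 and 558 CPM to 327, 176, 357 and 368 CPM (log2 fold change -0.77 ± 0.14, edgeR adjusted p = 0.000758; without replicate 2 -0.57 ± 0.07, edgeR adjusted p = 1.84e-06). IDI1 (-0.48), TM7SF2 (-0.49), EBP (-0.45) and MSMO1 (-0.27; without combination replicate 2 -0.16 ± 0.07, edgeR adjusted p = 0.118), enzymes of the synthesis itself, were among the others that fell. The 10 LXR-responsive genes had 0 rises and 4 falls (0 and 5 without combination replicate 2), of which SREBF1 and SCD are named above; the sterol transporter ABCG8 (-0.71) and MYLIP (-0.61), a ubiquitin ligase, were the others.

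In triglyceride synthesis and lipoprotein secretion, 3 of 22 genes rose and 7 fell (median -0.30), and without combination replicate 2 4 rose and 5 fell (median -0.10). Apolipoproteins went in different directions. APOA4 was at 44.3, 47.4, 44.4 and 55.1 CPM in formoterol and 164, 57.2, 185 and 171 CPM in the combination, where replicate 2 was far below the other 3 (log2 fold change 1.59 ± 0.22, edgeR adjusted p = 3.27e-05; without replicate 2 1.86 ± 0.09, edgeR adjusted p = 5.02e-14). APOB, the structural protein of very low density lipoprotein, rose (0.50 ± 0.12, edgeR adjusted p = 0.00467), while APOA2 fell (-1.28 ± 0.37, edgeR adjusted p = 0.0184). APOA2 was low in the combination, at -0.98 log2 CPM in replicate 2 and 1.44 to 1.62 log2 CPM in the other combination libraries. GPAM (-0.53), the mitochondrial glycerol-3-phosphate acyltransferase, and the phosphatidate phosphatases LPIN1 (-0.39) and LPIN2 (-0.36) fell, whereas LPIN3 rose (1.23). The acyltransferases of the last step, DGAT1 (-0.23) and DGAT2 (-0.35), were not called.

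Some of the genes that respond to cyclic AMP fell. Of 24 measured, 0 rose and 8 fell (median -0.25), and without combination replicate 2 1 rose and 9 fell (median -0.26); scaled by total counts, 4 rose and 4 fell. PPARGC1A (ENSG00000109819, chr4:23755041-23904089), the coactivator of mitochondrial biogenesis and gluconeogenesis, was at 117, 120.1, 117 and 112 CPM in formoterol and at 63.8, 73.7, 72.2 and 73.5 CPM in the combination. Replicate 1 was the lowest of the combination and replicate 2 the highest, and no combination library reached the formoterol range (log2 fold change -0.72 ± 0.07, edgeR adjusted p = 4.24e-07; without replicate 2 -0.74 ± 0.07, edgeR adjusted p = 7.44e-08). The phosphodiesterases PDE4B (-0.85) and PDE4D (-0.44), which degrade cyclic AMP and are themselves induced by it, fell. So did CREM (-0.36), whose inducible isoform represses CREB targets, the growth factor AREG (-0.40) and the phosphatase DUSP1 (-0.20), the last not without combination replicate 2 (-0.18 ± 0.07, edgeR adjusted p = 0.0665). NR4A1, an immediate early nuclear receptor, was at 4.80, 4.20, 4.25 and 3.49 CPM in formoterol and 5.95, 6.11, 5.42 and 3.51 CPM in the combination, with overlapping groups (log2 fold change 0.33 ± 0.19, edgeR adjusted p = 0.26; without replicate 2 0.25 ± 0.21, edgeR adjusted p = 0.495). CGA, the glycoprotein hormone alpha subunit, was lower on average and not called (-0.31 ± 0.16, edgeR adjusted p = 0.192).

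Of the 24 cyclic AMP genes 19 had a promoter in the RefSeq table (build GRCh38.p14, 250 bases before to 50 after the start), and 3 of the 19 (15.8%) held the palindromic cyclic AMP response element TGACGTCA, against 1.98% of 27305 promoters. These 3 windows, bases -160 to -31 on the gene's strand with the base before the start as -1, are shown because they carry the full element, in capitals; a match is a description and not a bound site.
CGA (chr6:87095137-87095266, minus strand): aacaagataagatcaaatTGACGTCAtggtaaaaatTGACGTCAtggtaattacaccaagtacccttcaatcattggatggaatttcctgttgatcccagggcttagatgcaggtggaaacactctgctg
DUSP1 (chr5:172771226-172771355, minus strand): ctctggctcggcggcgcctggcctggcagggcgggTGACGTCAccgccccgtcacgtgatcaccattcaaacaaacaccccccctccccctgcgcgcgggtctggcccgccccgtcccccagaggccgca
AREG (chr4:74444976-74445105, plus strand): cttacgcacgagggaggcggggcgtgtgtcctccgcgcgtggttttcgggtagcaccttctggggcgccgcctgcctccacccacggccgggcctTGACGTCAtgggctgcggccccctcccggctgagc
CGA held the element 2 times, from positions -142 and -124, while DUSP1 held it from -125 and AREG from -65. Of these genes AREG and DUSP1 fell and CGA was not called.

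Upstream of cyclic AMP, few genes of beta-adrenergic signalling were called. Of 23 measured, 1 rose and 1 fell (1 and 2 without combination replicate 2; median -0.04, which turned to 0.09 when scaled by total counts). ADRA1A, an alpha-1 adrenergic receptor, rose (0.48 ± 0.10, edgeR adjusted p = 0.00206), and PKIG, an inhibitor of protein kinase A, fell (-0.35 ± 0.10, edgeR adjusted p = 0.0164). PKIG overlaps ADA, with 0.325 times its counts. The catalytic subunits PRKACA (-0.16) and PRKACB (-0.13) and the Gs subunit GNAS (-0.08) were not called.

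Gluconeogenesis was lower in most of its measured genes: 0 of 14 rose and 10 fell (median -0.46), and without combination replicate 2 1 rose and 8 fell (median -0.36). SDS (ENSG00000135094, chr12:113392445-113426301), the serine dehydratase that feeds serine carbon into pyruvate, was at 80.4, 85.8, 75.5 and 90.03 CPM in formoterol and at 13.05, 8.59, 13.9 and 15.1 CPM in the combination. It was the largest protein-coding fall under the naming rule, in every library (log2 fold change -2.71 ± 0.13, edgeR adjusted p = 8.95e-12; without replicate 2 -2.57 ± 0.10, edgeR adjusted p = 1.89e-15), and it overlaps SDSL, with 0.446 times its counts. TAT (ENSG00000198650, chr16:71565660-71577130), the tyrosine aminotransferase induced by glucocorticoids and cyclic AMP, was at 24.2, 19.03, 25.2 and 22.5 CPM and then at 5.87, 1.09, 4.22 and 3.15 CPM (log2 fold change -2.67 ± 0.32, edgeR adjusted p = 7.99e-06; without replicate 2 -2.37 ± 0.24, edgeR adjusted p = 1.21e-07). G6PC, the glucose-6-phosphatase that releases glucose, fell from 109.6, 88.4, 113 and 103 CPM to 64.3, 21.5, 66.7 and 63.8 CPM, with replicate 2 the lowest (log2 fold change -0.94 ± 0.25, edgeR adjusted p = 0.0106; without replicate 2 -0.67 ± 0.16, edgeR adjusted p = 0.00378). PCK1, the cytosolic phosphoenolpyruvate carboxykinase, differed from the rest of the list: it was at 14.8, 12.7, 15.6 and 15.3 CPM in formoterol and 19.99, 10.7, 21.5 and 20.8 CPM in the combination. Its difference was not called with all libraries (0.32 ± 0.16, edgeR adjusted p = 0.191) and was a rise without replicate 2 (0.51 ± 0.12, edgeR adjusted p = 0.00453), while its mitochondrial counterpart PCK2 fell (-1.16 ± 0.12, edgeR adjusted p = 1.32e-06).

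TXNIP (ENSG00000265972, chr1:145992435-145996600), an arrestin that limits glucose uptake and is induced by glucose-sensing transcription factors, was at 70.2, 66.3, 63.9 and 66.3 CPM in formoterol and 328, 261, 313 and 319 CPM in the combination. It rose in each combination library, least in replicate 2 (log2 fold change 2.19 ± 0.07, edgeR adjusted p = 1.53e-14; without replicate 2 2.26 ± 0.06, edgeR adjusted p = 2.11e-19), and its relative ARRDC4 rose as well (0.58 ± 0.17, edgeR adjusted p = 0.0225). These were the 2 rises among 26 genes of glycolysis and glucose uptake, of which 14 fell (median -0.34; 2 and 14 without combination replicate 2). The largest fall was in PFKFB1 (-2.09), the liver 6-phosphofructo-2-kinase. The glucose transporter SLC2A1 (-0.67), the hexokinase HK2 (-0.63) and the common enzymes GAPDH (-0.40), TPI1 (-0.52), ENO1 (-0.35) and PGK1 (-0.35) also fell. In glycogen metabolism 0 of 16 rose and 7 fell, or 5 without combination replicate 2 and 2 when scaled by total counts; GYS1, the glycogen synthase of muscle, fell (-0.37 ± 0.06, edgeR adjusted p = 0.000359), and PYGL, the liver phosphorylase, fell less (-0.16 ± 0.05, edgeR adjusted p = 0.0364; without combination replicate 2 -0.15 ± 0.06, edgeR adjusted p = 0.0857).

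Amino acid breakdown and the urea cycle had 14 falls and 0 rises among 23 genes, with a median log2 fold change of -0.66 (14 and 0 without combination replicate 2, median -0.62). CPS1 (ENSG00000021826, chr2:210477682-210679107), the entry enzyme of the urea cycle, was at 151, 135, 135 and 125 CPM in formoterol and 77.3, 74.6, 77.9 and 72.1 CPM in the combination. Its 4 combination libraries were tightly grouped, replicate 2 included, and all below the formoterol range (log2 fold change -0.85 ± 0.07, edgeR adjusted p = 5.8e-08; without replicate 2 -0.85 ± 0.08, edgeR adjusted p = 1.3e-08). OTC (-1.05), ARG1 (-1.32) and the ornithine carrier SLC25A15 (-0.66) fell with it, whereas ASS1 (-0.10) and ASL (-0.23) were not called. Tyrosine breakdown fell at HPD (-1.19) and HGD (-0.84), and not at FAH (-0.07). GNMT, the glycine N-methyltransferase, was at 16.7, 14.4, 15.6 and 16.3 CPM and 3.39, 1.20, 4.56 and 4.09 CPM (log2 fold change -2.25 ± 0.30, edgeR adjusted p = 2.71e-05; without replicate 2 -1.97 ± 0.24, edgeR adjusted p = 1.68e-06), but it overlaps PEX6, which held 7.19 times its counts.

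Cytochromes P450 and other drug-metabolising genes fell in 11 of 24 cases and rose in 0 (median -0.55; 12 falls and 1 rise, CYP2E1, without combination replicate 2, median -0.37). CYP3A4 (ENSG00000160868, chr7:99756960-99784265), the most abundant drug-metabolising P450 of adult liver, was at 2509, 2136, 2522 and 2327 CPM in formoterol and 896, 217, 816 and 723 CPM in the combination. Replicate 2 was far below the other 3, and these were all below the formoterol libraries (log2 fold change -1.84 ± 0.26, edgeR adjusted p = 4.48e-05; without replicate 2 -1.55 ± 0.11, edgeR adjusted p = 3.62e-10). CYP2A6 (-1.69), CYP2B6 (-1.57) and the receptor NR1I3 (-1.04), which induces several of them, also fell. CYP2A6 and CYP2A7 (-1.86), UGT2B10 (-2.51) and CYP3A4 have near-identical relatives, so the split of counts between them is uncertain.

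Bile acid synthesis and transport had 1 rise and 7 falls among 18 genes (median -0.36; 1 and 6 without combination replicate 2, median -0.18). CYP7A1, the rate-limiting enzyme of bile acid synthesis, was at 22.8, 20.6, 26.9 and 19.9 CPM in formoterol and 7.44, 2.19, 9.63 and 10.05 CPM in the combination. No combination library reached the formoterol range, and replicate 2 was the lowest (log2 fold change -1.62 ± 0.32, edgeR adjusted p = 0.00122; without replicate 2 -1.31 ± 0.23, edgeR adjusted p = 0.000202). The bile salt export pump ABCB11 fell from 5.60, 4.04, 4.25 and 3.15 CPM to 1.34, 0.320, 1.03 and 2.17 CPM (log2 fold change -1.81 ± 0.44, edgeR adjusted p = 0.00596; without replicate 2 -1.49 ± 0.38, edgeR adjusted p = 0.00809). The uptake carrier SLC10A1 (-1.31) and the conjugating enzyme BAAT (-0.80) fell too, and the basolateral exporter ABCC3 rose (0.62 ± 0.09, edgeR adjusted p = 7.04e-05).

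Most measured respiratory chain genes of both genomes fell. Of 13 mitochondrially encoded genes 0 rose and 11 fell (median -0.53; 0 and 11 without combination replicate 2, median -0.42), and of 52 nuclear-encoded genes 0 rose and 35 fell (median -0.46; 0 and 27 without that library, median -0.35; 0 and 28 when scaled by total counts). CYCS (ENSG00000172115, chr7:25120091-25125361), cytochrome c, was at 812, 804, 779 and 882 CPM in formoterol and 455, 447, 500.1 and 494 CPM in the combination. Its groups were well separated and replicate 2 lay with the others (log2 fold change -0.79 ± 0.06, edgeR adjusted p = 1.63e-08; without replicate 2 -0.76 ± 0.06, edgeR adjusted p = 1.24e-09). Formoterol replicate 4, the deepest library and the one with the highest mitochondrial share, was high on both lists: its mean over the members, less the formoterol mean, was 0.30 and 0.25 log2 units, against -0.19 to -0.01 and -0.15 to -0.04 in the other 3. Without it 10 mitochondrially encoded and 24 nuclear-encoded genes fell (medians -0.42 and -0.35). By complex, the nuclear genes that fell were 14 of 22 in complex I, 4 of 4 in complex II, 5 of 7 in complex III, 4 of 10 in complex IV and 7 of 8 in the ATP synthase. Without combination replicate 2 the same counts were 10, 4, 3, 2 and 7. On the mitochondrial side MT-CYB (-0.69) of complex III fell, and so did MT-ND4 (-0.59) of complex I, which overlaps MT-ND4L with 0.152 times its counts. Among 23 genes of mitochondrial biogenesis and dynamics 0 rose and 6 fell (0 and 7 without combination replicate 2; median -0.11, turning to 0.02 when scaled by total counts). Those with all libraries were PPARGC1A and its partners ESRRA (-0.40) and ESRRG (-0.76), the fusion proteins MFN1 (-0.22) and MFN2 (-0.35) and the fission factor MFF (-0.33). TFAM, which packages mitochondrial DNA, was not called (-0.11 ± 0.07, edgeR adjusted p = 0.31).

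**Figure D2:**
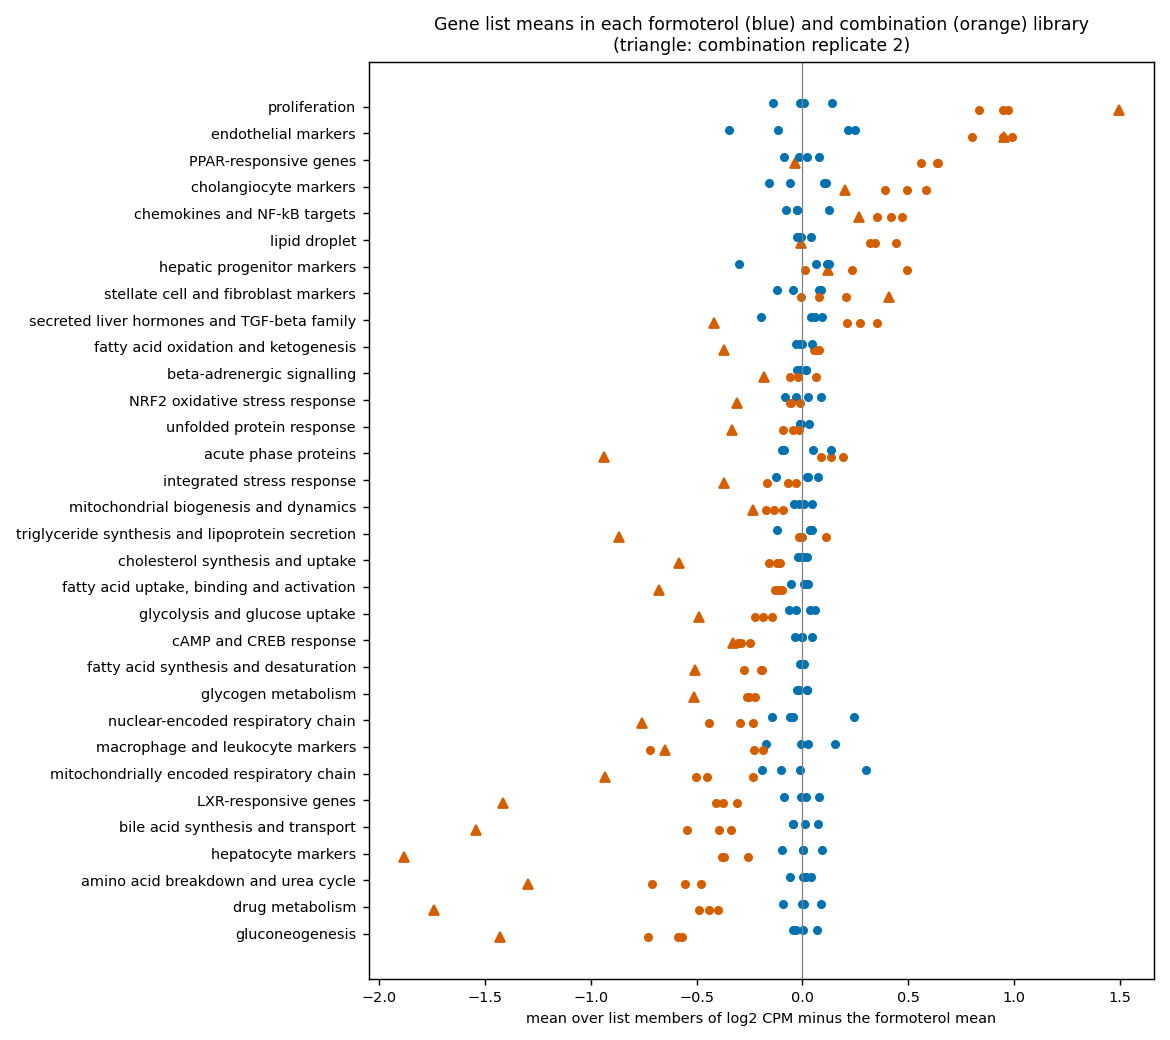
Mean over the members of each gene list (y axis, 32 lists) of log2 CPM less the formoterol mean (x axis, log2 units) in each formoterol library (blue) and combination library (orange), with combination replicate 2 as a triangle. Proliferation lies at 0.83 to 0.97 in 3 combination libraries and at 1.49 in replicate 2, the 2 tested endothelial markers lie at 0.80 to 0.99 in all 4, and replicate 2 lies apart from the other 3 for hepatocyte markers (-1.88 against -0.38 to -0.26) and drug metabolism (-1.74 against -0.49 to -0.40).

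Nearly all measured proliferation genes rose. Of 20 genes of DNA replication and mitosis 19 rose and 0 fell with a median log2 fold change of 1.12, and 18 rose without combination replicate 2 (median 0.97). MKI67 (ENSG00000148773, chr10:128096659-128126385), the Ki-67 antigen of cycling cells, was at 26.8, 20.02, 29.4 and 22.1 CPM in formoterol and at 61.5, 115, 69.5 and 63.04 CPM in the combination. Every combination library lay above all formoterol libraries, and replicate 2 was the highest (log2 fold change 1.65 ± 0.19, edgeR adjusted p = 3.68e-06; without replicate 2 1.40 ± 0.14, edgeR adjusted p = 1.02e-07). TOP2A (ENSG00000131747, chr17:40388516-40417950), topoisomerase II alpha, was at 68.5, 63.98, 75.1 and 63.7 CPM and then at 158, 257, 158 and 143 CPM (log2 fold change 1.40 ± 0.15, edgeR adjusted p = 1.24e-06; without replicate 2 1.17 ± 0.10, edgeR adjusted p = 3.19e-09). The other mitotic genes ranged from 0.94 for cyclin CCNB1 to 1.49 for CENPF, with BUB1, BUB1B, CDK1, AURKA, AURKB, PLK1 and CDC20 between. The replication genes MCM2 (0.92), MCM5 (0.66), RRM2 (1.26) and TYMS (1.05) rose, as did the clamp PCNA by a small margin (0.26 ± 0.08, edgeR adjusted p = 0.0281), which did not pass without combination replicate 2 (0.20 ± 0.08, edgeR adjusted p = 0.0929). CCNB2 was under 1 CPM in all 8 libraries and was not called.

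Cell cycle promoters are known for a CCAAT box, bound by NF-Y, and a cell cycle homology region, bound by the DREAM and MuvB complexes. Of the 20 proliferation genes 16 had a promoter in the RefSeq table. Within it, 13 (81.2%) held CCAAT on either strand, against 35.7% of 27305 promoters, and 8 (50.0%) held TTTGAA on either strand, against 15.4%. Both motifs stood in 7 of the 16 promoters (43.8%) and in 6.08% of all promoters, and TYMS and MCM2 had neither. Windows of 5 genes that rose are shown as examples of the arrangement, from -130 to -1 except TOP2A from -200 to -50, with both motifs in capitals. In MKI67 a TTTGAA and the reverse complement of a CCAAT overlap by 1 base.
MKI67 (chr10:128126424-128126553, minus strand): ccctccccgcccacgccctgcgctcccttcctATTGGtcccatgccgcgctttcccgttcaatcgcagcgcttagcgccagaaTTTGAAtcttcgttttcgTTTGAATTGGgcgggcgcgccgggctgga
CDC20 (chr1:43358851-43358980, plus strand): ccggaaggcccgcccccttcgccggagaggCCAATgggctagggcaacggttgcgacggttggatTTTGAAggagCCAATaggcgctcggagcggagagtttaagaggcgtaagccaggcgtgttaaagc
PLK1 (chr16:23678759-23678888, plus strand): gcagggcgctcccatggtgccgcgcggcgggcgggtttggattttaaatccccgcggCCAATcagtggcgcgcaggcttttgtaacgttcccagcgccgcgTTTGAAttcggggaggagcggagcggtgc
RRM2 (chr2:10122609-10122738, plus strand): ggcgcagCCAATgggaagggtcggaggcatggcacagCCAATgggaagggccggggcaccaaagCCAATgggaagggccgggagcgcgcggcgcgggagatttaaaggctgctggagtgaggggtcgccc
TOP2A (chr17:40417946-40418096, minus strand): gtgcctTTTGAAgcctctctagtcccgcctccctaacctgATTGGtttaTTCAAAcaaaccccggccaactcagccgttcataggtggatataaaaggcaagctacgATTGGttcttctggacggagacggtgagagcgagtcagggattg
MKI67, CDC20, PLK1 and TOP2A carried both motifs, and RRM2 carried 3 CCAAT boxes without TTTGAA. In other lists the shares varied: 0 of 18 promoters of PPAR-responsive genes held the core of the PPAR response element, a direct repeat with 1 base between (0.524% of all promoters), and 1 of 18 of the cholesterol genes, SREBF2, held TCACNCCAC (1.15%). TGATGNAAN stood in 5 of 17 promoters of integrated stress response genes (29.4%, against 3.67%).

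**Figure D3:**
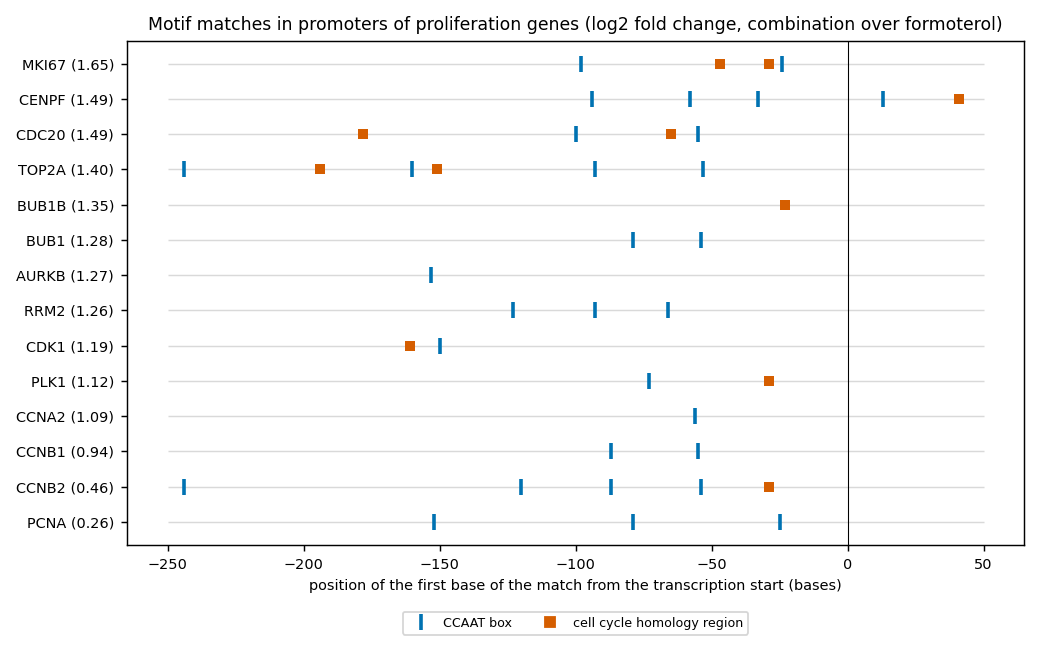
Positions of CCAAT boxes (blue bars) and cell cycle homology regions (orange squares) from the transcription start (x axis, in bases; the grey line spans the promoter of 250 bases before to 50 after) in the 14 proliferation promoters that hold at least 1 (y axis, with the log2 fold change of the gene). CCAAT boxes lie before the start in all but 1 case, in CENPF, and PCNA and CCNB2, with the smallest fold changes, hold them as well.

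Markers of the cell types followed no single direction. Of 20 hepatocyte markers 1 rose, APOB, and 7 fell (median -0.40; 1 and 8 without combination replicate 2, median -0.16). ALB (ENSG00000163631, chr4:73397114-73421412), albumin, was at 31193, 30590.5, 31946 and 31699 CPM in formoterol and 24588, 9823, 26671 and 25759 CPM in the combination. Its fall missed the threshold with all libraries (log2 fold change -0.53 ± 0.20, edgeR adjusted p = 0.0659) and passed without replicate 2 (-0.29 ± 0.10, edgeR adjusted p = 0.0415). RBP4 (-0.94), TTR (-0.92) and the regulator HNF4A (-0.40) fell. Among 8 measured cholangiocyte markers 3 rose and 1 fell, and their summed level was 307 to 316 CPM in formoterol and 368 to 463 CPM in the combination; the defining marker EPCAM was at 0. KRT19 (1.18 ± 0.08, edgeR adjusted p = 1.53e-09), MUC1 (1.78 ± 0.22, edgeR adjusted p = 9.48e-06) and CD24 (0.82 ± 0.13, edgeR adjusted p = 0.000172) rose, and SOX9 fell (-1.10 ± 0.08, edgeR adjusted p = 1.63e-08).

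Of the progenitor markers 3 could be tested and 0 were called, with DLK1 and SALL4 at 0 (summed level 16.6 to 20.4 CPM in formoterol and 17.1 to 32.9 CPM in the combination). For stellate cells and fibroblasts the sums were 1144 to 1417 and 1400 to 1574 CPM, with COL1A2 at 0, 2 rises (DCN and LUM; DCN alone without combination replicate 2) and 1 fall (RGS5, which overlaps the mitotic gene NUF2 with 0.870 times its counts). Leukocyte markers summed to 27.6 to 34.3 and 14.7 to 28.9 CPM, with CD3E at 0, and endothelial markers to 38.9 to 50.6 and 52.6 to 107 CPM, with VWF, CDH5, LYVE1 and CLEC4G at 0. Of the leukocyte markers 4 could be tested and 1 fell, CD14 (-0.45 ± 0.15, edgeR adjusted p = 0.0468; without combination replicate 2 -0.26 ± 0.11, edgeR adjusted p = 0.108). The 2 endothelial markers that could be tested both rose, PECAM1 (1.25 ± 0.32, edgeR adjusted p = 0.00941; without that library 1.42 ± 0.32, edgeR adjusted p = 0.00285) and KDR (0.67 ± 0.15, edgeR adjusted p = 0.00326; without it 0.41 ± 0.09, edgeR adjusted p = 0.00302). Beside the falls in drug, bile acid and amino acid genes, the hepatocyte marker sum was lower and the cholangiocyte marker sum higher. The hepatocyte list shares CYP3A4 with the drug list and CPS1 with the amino acid list. The part of cell composition in those falls was not tested.

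Secreted liver factors included some of the larger rises. INHBE (ENSG00000139269, chr12:57452323-57459280), the inhibin beta E subunit that liver secretes, was at 4.23, 4.63, 3.54 and 4.45 CPM in formoterol and 23.7, 7.47, 27.6 and 22.04 CPM in the combination. Replicate 2 rose least, although it too was above all formoterol libraries (log2 fold change 2.26 ± 0.27, edgeR adjusted p = 6.49e-06; without replicate 2 2.53 ± 0.16, edgeR adjusted p = 9.88e-12). INHBC (0.95), the insulin-like growth factor binding proteins IGFBP1 (0.82) and IGFBP3 (0.62), FSTL3 (0.88) and SELENOP (0.33) also rose. RBP4 and TGFB2 (-0.42) were among those that fell, and 7 of 21 rose and 3 fell in all (9 and 3 without combination replicate 2). FGF21 was too low to test, with 0, 0, 0 and 0 counts in formoterol and 6, 4, 2 and 2 in the combination.

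Chemokines and NF-kB targets rose in 6 of 19 cases and fell in 1 (median 0.38; the same counts without combination replicate 2). CXCL8, the neutrophil chemokine, was at 11.7, 14.9, 15.9 and 15.7 CPM in formoterol and 25.5, 36.2, 19.3 and 26.4 CPM in the combination (log2 fold change 0.88 ± 0.14, edgeR adjusted p = 0.000168; without replicate 2 0.70 ± 0.12, edgeR adjusted p = 0.000145). CXCL3 (0.94), CXCL2 (0.46), LCN2 (0.70), TNFAIP3 (0.57) and BIRC3 (0.38) rose, IL32 fell (-0.43), and IL6 (0.43 ± 0.56, edgeR adjusted p = 0.655) was not called. Acute phase proteins depended on the 1 library. With all libraries 2 of 20 rose and 1 fell (median -0.04, turning to 0.06 when scaled by total counts), and without combination replicate 2 6 rose and 1 fell (median 0.13). CRP, C-reactive protein, was at 54.8, 59.7, 56.7 and 57.4 CPM in formoterol and 103, 28.1, 96.7 and 98.1 CPM in the combination, so that replicate 2 was below the formoterol range and the other 3 above it (log2 fold change 0.51 ± 0.23, edgeR adjusted p = 0.135; without replicate 2 0.80 ± 0.08, edgeR adjusted p = 2.34e-07).

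Stress programmes had calls in both directions, against 9.48% rises and 8.97% falls among all genes. The unfolded protein response had 1 rise (PDIA4, 0.26) and 4 falls among 21 genes (1 and 2 without combination replicate 2; median -0.11, turning to 0.02 with 2 rises and 0 falls when scaled by total counts). The NRF2 response had 1 rise (AKR1B10, 0.28) and 2 falls among 21 (3 and 3 without combination replicate 2; median -0.08, turning to 0.05). The integrated stress response had 2 rises, INHBE and DDIT4 (0.34), and 5 falls among 21 genes (2 and 4 without combination replicate 2). CTH (-0.87) and SLC3A2 (-0.46) were among the falls. ATF4 (0.10 ± 0.08, edgeR adjusted p = 0.44) and DDIT3 (0.01 ± 0.14, edgeR adjusted p = 0.979) were not called.

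Beyond the lists, the largest rises under the naming rule were mostly of genes at a low level. KRT16, a keratin of stratified epithelium with near-identical copies, was at 0.400, 0.268, 0.451 and 0.657 CPM in formoterol and 4.52, 6.97, 4.49 and 5.32 CPM in the combination (log2 fold change 3.53 ± 0.35, edgeR adjusted p = 5.11e-07; without replicate 2 3.38 ± 0.34, edgeR adjusted p = 8.38e-08). KRT15 (3.17), the placental alkaline phosphatase ALPP (2.71), the cytidine deaminase APOBEC3B (1.93), PGGHG (1.89) and UBAP1L (1.85) completed the 10 with ANGPTL4, INHBE, TXNIP and PLIN1. ALPP and APOBEC3B have near-identical relatives. The 10 largest falls were SDS, TAT, UGT2B10, GNMT, PFKFB1, CYP2A7, TRO, CYP3A4, ABCB11 and THRSP. Of the noncoding genes LINC00893 (1.97), LINC00894 (1.85) and POM121L9P (1.82) rose, and CYP2B7P (-1.72), UGT1A2P (-1.41) and AJ009632.2 (-1.37) fell. LINC00893 and LINC00894 overlap CXorf40A and CXorf40B, with 6.86 and 8.61 times their counts, and UGT1A2P lies within UGT1A9, with 78.1 times its counts, so these values are uncertain.

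The change made by the acids was then set beside the change they made without formoterol, between the fatty acid and control libraries of the same fit; the comparisons share no libraries but share the estimate of spread. Without formoterol 2998 of 18121 genes (16.5%) differed, 1618 upward (8.93%) and 1380 downward (7.62%). Both comparisons called 581 genes up (33.8% of the rises with formoterol and 35.9% of those without) and 633 down (39.0% and 45.9%). A further 15 genes rose with formoterol and fell without it, and 54 did the opposite. Without combination replicate 2 the shared part was larger among the changes with formoterol. It was 614 of 1328 rises (46.2%, and 31.2% of the 1966 rises without formoterol) and 674 of 1372 falls (49.1%, and 41.6% of 1621). In that fit 12 genes rose with formoterol and fell without it, and 87 did the opposite. PDK4 was at 731, 728, 794 and 702 CPM in control and 2454, 2599, 2497 and 2371 CPM with fatty acids, and its log2 fold change of 1.75 ± 0.07, edgeR adjusted p = 8.65e-14 differed from that with formoterol by 0.01 ± 0.09, edgeR adjusted p = 0.961. TXNIP (2.15 without formoterol), CPT1A (0.83), PPARGC1A (-0.76) and FASN (-0.40) likewise had no called difference between the changes.

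**Figure D4:**
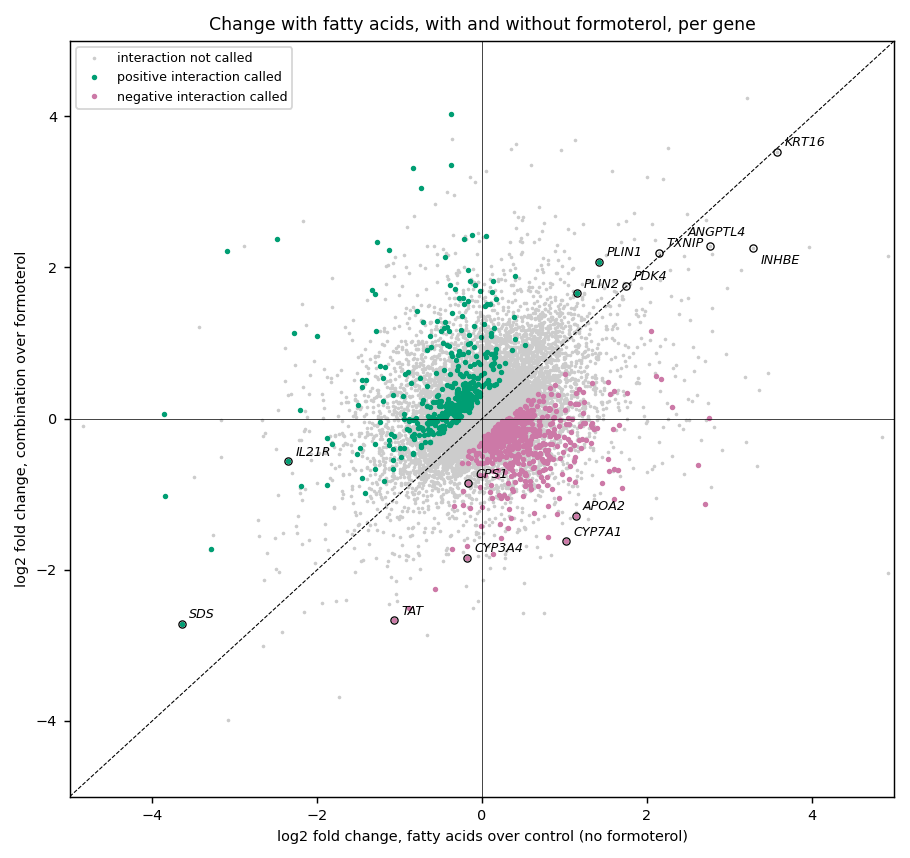
Log2 fold change of each tested gene for fatty acids over control (x axis) and for combination over formoterol (y axis), with the dashed line at equal change; green and pink mark genes whose 2 changes differed by the interaction test, and 5 genes lie outside the axes. PDK4 and TXNIP lie near the dashed line, while CYP7A1, APOA2, CYP3A4 and CPS1 lie below it and PLIN1, PLIN2, SDS and IL21R above it.

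The difference between the changes, tested as an interaction, passed for 997 genes (5.50%), 384 with a positive (2.12%) and 613 with a negative sign (3.38%). Without combination replicate 2 it passed for 1026 genes (5.54%), 359 positive (1.94%) and 667 negative (3.60%). The total fell to 444 without control replicate 3, 640 without control replicate 4, 585 without formoterol replicate 4, 604 without fatty acid replicate 1 and 653 without fatty acid replicate 3. Of the 613 negative genes 311 had risen with the acids alone and were not called with formoterol, 193 were not called with the acids alone and fell with formoterol, and 54 rose alone and fell with formoterol. Among the 667 negative genes without combination replicate 2 the same counts were 369, 138 and 87. Of 20 hepatocyte markers 16 had a negative interaction, 18 without combination replicate 2, against 3.38% of all genes. Negative calls also covered 13 of 24 drug metabolism genes, 13 of 25 cholesterol genes and 10 of 28 fatty acid oxidation genes, with 0 positive calls in each list. They covered 16, 12 and 10 genes without combination replicate 2, where drug metabolism also had 1 positive call.

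CYP7A1 showed the largest negative value among the named genes. It was at 6.80, 13.5, 4.04 and 8.38 CPM in control and 15.8, 13.7, 18.4 and 18.3 CPM with fatty acids, a rise of 1.02 ± 0.32, edgeR adjusted p = 0.0316, and the interaction was -2.63 ± 0.45, edgeR adjusted p = 0.0023. Its level thus fell with the acids where formoterol was present and rose where it was absent. CYP3A4 did not differ between fatty acids and control (-0.19 ± 0.25, edgeR adjusted p = 0.69), and its interaction was -1.65 ± 0.36, edgeR adjusted p = 0.0102. ALB rose without formoterol (0.86 ± 0.20, edgeR adjusted p = 0.0041) with an interaction of -1.39 ± 0.28, edgeR adjusted p = 0.00677. APOA2 (-2.42), the chemokine CCL16 (-2.36), the phosphodiesterase ENPP6 (-2.27) and the fetuin AHSG (-2.15) were the other negative genes of the naming rule. Starting levels differed: mean ALB was 16504 ± 3495 CPM (SD, n = 4) in control and 31357 ± 599 CPM in formoterol, and mean CPS1 was 49.3 ± 2.16 and 136 ± 11.02 CPM.

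Among the positive interactions, PLIN2 rose more with formoterol than without it (1.15 ± 0.06, edgeR adjusted p = 6.08e-12 without; interaction 0.51 ± 0.08, edgeR adjusted p = 0.00112), and its levels were 256, 229, 249 and 258 CPM in control and 563, 542, 540.1 and 552 CPM with fatty acids, so the group with formoterol alone was the lowest of the 4. PLIN1 had an interaction of 0.66 ± 0.14, edgeR adjusted p = 0.00857. SDS was at 32.5, 38.5, 30.3 and 36.5 CPM in control and 3.25, 2.20, 2.75 and 2.81 CPM with fatty acids, and fell further without formoterol (-3.64 ± 0.15, edgeR adjusted p = 3.28e-13; interaction 0.93 ± 0.20, edgeR adjusted p = 0.00873). IL21R, a cytokine receptor, fell without formoterol (-2.35 ± 0.25, edgeR adjusted p = 1.04e-06) and was not called with it (-0.56 ± 0.25, edgeR adjusted p = 0.133; interaction 1.79 ± 0.35, edgeR adjusted p = 0.00627). CCR7 (1.96), CRACR2B (2.04), SLC16A8 (1.83) and ZDHHC11 (1.86), the last overlapping BRD9 with 10.4 times its counts, were other protein-coding genes with a positive interaction. Proliferation genes had 18 rises among 20 without formoterol (median 0.89) and 0 interactions in either direction. The respiratory chain genes had 0 interactions among the 13 mitochondrially encoded and 1 among the 52 nuclear-encoded, NDUFA5 (-0.40). The share over all genes was 5.50%, so few calls would be due in lists of these sizes.

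Combination replicate 2 decided some calls. The rises of EPB41L3 (0.29 ± 0.08, edgeR adjusted p = 0.0124; without the library 0.21 ± 0.07, edgeR adjusted p = 0.0523), GPSM1 (0.82 and 0.63) and TRPA1 (1.20 and 0.88) and the falls of ERMP1 (-0.29 and -0.22), NOP16 (-0.45 and -0.38) and SKIDA1 (-0.53 and -0.44) passed only with it. TRPA1, SKIDA1, NOP16 and ERMP1 overlap genes with 12.8, 3.86, 1.28 and 0.808 times their counts. Other genes rose only without it. The anion carrier SLC22A7 was at 30.3, 31.6, 31.7 and 27.3 CPM in formoterol and 60.8, 13.6, 54.9 and 59.03 CPM in the combination (log2 fold change 0.64 ± 0.28, edgeR adjusted p = 0.116; without replicate 2 0.95 ± 0.13, edgeR adjusted p = 1.1e-05). AFM, the vitamin E binding protein afamin, was at 0.57 with and 0.86 without the library, CRP at 0.51 and 0.80, the nucleoside carrier SLC28A1 at 0.56 and 0.85, and WNT7B at 0.86 and 1.01. Falls that passed only without it were PDE6A (-1.12), ZNF565 (-0.93), IL21R (-0.78), CYP46A1 (-0.71) and MLIP (-0.66). ZNF565 overlaps ZNF146, with 38.6 times its counts, and MLIP overlaps AL033384.1, with 0.105 times its counts, so these values are uncertain.

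**Figure D5:**
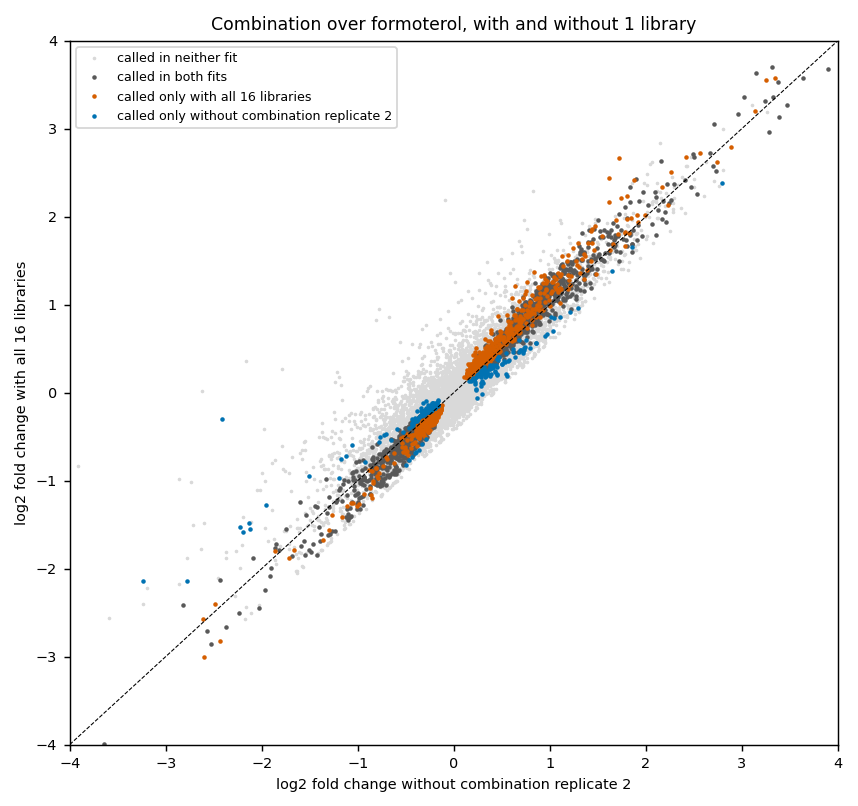
Log2 fold change of combination over formoterol per gene without combination replicate 2 (x axis) and with all 16 libraries (y axis), with the dashed line at equal change and colours for genes called in both fits, in 1 or in neither; 9 genes lie outside the axes. The 1226 rises and 1262 falls called in both fits lie along the line, and SLC22A7, CRP and AFM are among the genes called only without the library.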

How the data were processed

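Poly-A RNA of differentiated HepaRG cells was sequenced in 16 libraries, 4 per group. The authors deposited raw gene counts, whole numbers that are not normalized. Per the submitters' processing notes, the tools were HISAT2 2.0.5 and DESeq2, with no role given for either, and the build listed there, mm39, is a mouse one. All 58735 gene IDs of the deposited table are human and found in GENCODE release 29 (GRCh38), and 0 are mouse, so the counts were read as human. The sources used here do not say which program counted the reads or whether it used strand. Thus reads of a gene and an overlapping or antisense partner cannot be told apart.

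Libraries were grouped by their titles. Genes were filtered with filterByExpr of edgeR 4.0.16 (R 4.3.3), which left 18121 genes and 99.94% of counts, and depth ranged from 32.5 x 1e6 to 65.7 x 1e6 counts. After TMM scaling a model with 4 group means was fitted over 16 libraries. The contrasts combination minus formoterol, fatty acids minus control and their difference (the interaction) were tested with edgeR's quasi-likelihood test, with Benjamini-Hochberg adjustment over all genes tested at 0.05. The same fit was made without combination replicate 2, where 18517 genes passed the filter. For log2 fold changes, values after ± are standard errors, taken as the absolute change over the square root of the test's F statistic. For CPM they are SD, and CPM uses TMM-scaled library sizes. CPM is not divided by gene length, so levels are compared within a gene only. Log2 CPM used a prior count of 2.

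The members and the gene lists (32 lists, 624 distinct genes, 573 of them tested) were chosen with earlier results of these data known. Named genes were the 10 largest protein-coding rises and falls and the 3 largest noncoding ones that passed with and without combination replicate 2, averaged 2 CPM or more in the higher of the groups and did not overlap between groups. To these came up to 2 members of each list with the smallest p, genes always named (such as PDK4 and CGA), genes whose call rested on combination replicate 2, and the 5 largest interactions in each direction, 103 genes in all, of which 1 is not reported here. Of these, 67 overlap another gene, in 20 cases one whose counts exceed 10% of their own. Further list members were named as examples after their values were seen. Lists are described by counts and medians, without a set test. Alternatives were DESeq2 1.42.0 and its size factors, total counts, other filters, limma 3.58.1 voom with quality weights, a replicate block, the 2 groups alone, protein-coding genes alone and each library left out; the 2 groups alone without combination replicate 2 was added after the data were seen. Promoters came from RefSeq (GRCh38.p14) and were matched by symbol. The fit was also run on simulated counts with set changes in the combination group and no library standing apart. That run does not bear on combination replicate 2, and its outcome is not used here. Figures used Python 3.11.15, pandas 2.3.3 and matplotlib 3.10.9.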

Additional observations from a re-analysis of the deposited data

Results flagged for a closer look

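Of 272 groups of 4 libraries (list means and named genes, in formoterol and in the combination), 34 held a library far from the other 3 by Dixon's test at the 95% level, and 28 of the 34 were combination replicate 2. Chance flags about 1 in 20 independent groups, but these are not independent: lists share members, that library was known to stand apart, and some genes, such as AFM, CRP and SLC22A7, were named because their call rested on it. In that library the list mean relative to formoterol was far below its group for PPAR-responsive genes (-0.035), fatty acid oxidation and ketogenesis (-0.37), fatty acid uptake and binding and activation (-0.68), triglyceride synthesis and lipoprotein secretion (-0.87), cholesterol synthesis and uptake (-0.58), LXR-responsive genes (-1.41), glycogen metabolism (-0.51), NRF2 oxidative stress response (-0.31), acute phase proteins (-0.94), drug metabolism (-1.74) and hepatocyte markers (-1.88).

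Single genes gave the same library as the one apart. Its log2 CPM was below its group for AFM (3.10), AHSG (-0.83), AKR1B10 (7.68), APOA2 (-0.98), APOA4 (5.84), BAAT (6.14), CP (8.40), CREB3L3 (7.07), CRP (4.82), CYP2B7P (4.37), CYP3A4 (7.76), FGA (13.91), INSIG1 (7.46), SLC22A7 (3.78) and TRO (-4.21), and above it for PDK4 (11.58) and TOP2A (8.01). TRO had 0 counts there, so its value is set by the prior count.

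In other libraries the triglyceride and lipoprotein list (-0.12) and the progenitor markers (-0.30) were low in formoterol replicate 2, as was THRSP (3.85 log2 CPM). GPAM (9.84) stood apart in formoterol replicate 4, UGT1A2P (1.93) in formoterol replicate 1 and PPARGC1A (6.00) in combination replicate 1.

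Among the named genes, 33 changed differently with the acids in the presence and absence of formoterol, by edgeR's interaction test on the log2 scale. The interaction was negative for CYP7A1 (-2.63), APOA2 (-2.42), CCL16 (-2.36), ENPP6 (-2.27), AHSG (-2.15), THRSP (-1.92), GNMT (-1.68), CYP3A4 (-1.65), UGT2B10 (-1.61), TAT (-1.60), AFM (-1.53), CYP2A6 (-1.51), CYP2B7P (-1.36), BAAT (-1.26), INSIG1 (-0.94), IDI1 (-0.84), CPS1 (-0.68), ACSS2 (-0.41) and CANX (-0.28). It was positive for LINC00893 (2.14), CRACR2B (2.04), CCR7 (1.96), POM121L9P (1.96), ZDHHC11 (1.86), SLC16A8 (1.83), IL21R (1.79), PGGHG (1.49), SDS (0.93), PLIN1 (0.66), ADRA1A (0.62), PLIN2 (0.51), SLC2A1 (0.41) and GYS1 (0.37). The calls of AHSG, CRACR2B and SLC16A8 passed with all libraries and lost significance when any of several single libraries was left out; for AHSG the value without control replicate 3 was -1.99 (edgeR adjusted p = 0.0878). LINC00893, GNMT, PLIN1, SDS, THRSP and ZDHHC11 overlap genes with many counts, and CYP3A4, CYP2A6, CYP2B7P and UGT2B10 have near-identical relatives, so these values are uncertain.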

How the results depend on the processing

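The comparison of combination with formoterol gave 3342 genes (1717 up, 1625 down). Other size factors, filters, tools and gene sets stayed within 1.5 times of this total, from 2633 genes (a replicate block without combination replicate 2) to 3724 (DESeq2). Scaling by total counts alone gave 2965 rises and 696 falls, and 1030 positive and 351 negative interactions. Requiring at least 2-fold gave 547 genes, 433 up and 114 down. For the interaction, testing without a filter gave 1523 genes and 646 positive ones, and DESeq2 gave 629 positive ones. Leaving out each library in turn gave 444 to 1325 interactions, 170 to 558 positive and 274 to 767 negative, with 444 without control replicate 3, and 2479 to 3399 genes for the comparison itself.

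With the replicate number as a replicate block 3447 genes were called, 1724 up and 1723 down. The numbers do not pair the libraries: same-numbered formoterol and combination libraries deviated from their group means with correlations of -0.02, 0.07, 0.00 and 0.06, and only number 2 correlated best with its own number. Of the named genes CRACR2B lost its interaction under the block (edgeR adjusted p = 0.0569, value 2.02).

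Over named genes and lists, 5235 of 5590 recomputed values were scored as the same. For a gene this meant the same direction and call, whatever the size. A list count had to stay within 1.5 times, and a list median within the SD of the list means among libraries, combination replicate 2 included. A reversed direction was scored for genes only, and 1 gene reversed: AHSG, not called, ranged from -0.17 without combination replicate 3 to 0.53 without combination replicate 2. List medians that changed sign when scaled by total counts are named with their lists. The cause of these differences was not tested. Depth limits the genes near 1 CPM, where a library holds few counts.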

Other observations

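The genes called in opposite directions with and without formoterol, described here after their values were seen, included several liver enzymes. Of the 54 that rose with the acids alone and fell when the acids were added to formoterol, 34 were so called also without combination replicate 2, and of the 15 that did the opposite, 9 were. The fit without that library called 87 and 12 such genes in all. BAAT, which conjugates bile acids to glycine and taurine, had a mean of 112 ± 18.3 CPM in control, 155 ± 15.2 CPM with fatty acids, 174 ± 5.57 CPM with formoterol and 99.7 ± 19.7 CPM with the combination (SD, n = 4). The order of the group means was opposite with and without formoterol (log2 fold change 0.46 ± 0.12, edgeR adjusted p = 0.0105 without it and -0.80 ± 0.12, edgeR adjusted p = 8.34e-05 with it). ALDH1A1, a retinaldehyde dehydrogenase, changed by 0.36 ± 0.10, edgeR adjusted p = 0.0115 without formoterol and by -0.62 ± 0.10, edgeR adjusted p = 0.000127 with it. The imprinted gene PEG10 changed by 0.32 ± 0.08, edgeR adjusted p = 0.00904 and -0.65 ± 0.08, edgeR adjusted p = 1.26e-05, and HPGD, which inactivates prostaglandins, by 0.71 ± 0.14, edgeR adjusted p = 0.00101 and -0.46 ± 0.14, edgeR adjusted p = 0.0222. G6PC, EHHADH, IDI1, HSD17B11, ABCB1 and CYP7A1 belong to the same 34.

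In the other direction, GPX3, a secreted glutathione peroxidase, was at 7906, 6549, 8555 and 8262 CPM in control, 5869.9, 5537, 5179.8 and 5537 CPM with fatty acids, 4301, 4512, 4406 and 4849 CPM with formoterol and 5101, 5482, 5217 and 5430.1 CPM with the combination. It fell without formoterol (-0.50 ± 0.07, edgeR adjusted p = 2.15e-05) and rose with it (0.23 ± 0.07, edgeR adjusted p = 0.02). BTG2, an antiproliferative gene, changed by -0.29 ± 0.06, edgeR adjusted p = 0.00255 without formoterol and 0.36 ± 0.06, edgeR adjusted p = 0.000376 with it, and the complement receptor C5AR2 by -0.89 ± 0.16, edgeR adjusted p = 0.000506 and 0.61 ± 0.16, edgeR adjusted p = 0.0079.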
